A study of Drosophila melanogaster with 3 samples.

Results

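The Mediator complex genes of Drosophila melanogaster were taken as the protein-coding genes whose symbol starts with MED and a digit, together with kto, skd, Cdk8 and CycC. This rule found 29 genes among 13945 protein-coding genes of the 6 main chromosome arms. The members divide into 7 head, 9 middle and 5 tail genes, 3 genes of subunits that join head and tail, 4 genes of the kinase module, and MED14. The fly gene of the MED29 subunit bears the symbol ix and is not a member. It held no reproducible summit. Sources differ on the module of some subunits.

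Binding of the HES-family repressor Hairy (symbol hry, h in the labels) was mapped by ChIP-seq in whole wandering larvae of the third instar, of mixed sex. The larvae, of the 1 strain 15T-GFP, carried a Hairy protein with GFP joined to the C-terminal end, and an anti-GFP antibody pulled down the chromatin. The 3 samples are biological replicates of this 1 group, so no condition was set against another, and the labels do not say whether untagged Hairy was also present. Whole larvae mix many tissues, so the lists do not say in which cells a site was occupied.

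Mediator is the large coactivator assembly that carries signals from DNA-bound transcription factors to RNA polymerase II. Its head and middle modules contact the polymerase, MED14 is the scaffold that joins the modules, and the tail is the main docking surface for activators. The kinase module, made of the cyclin-dependent kinase Cdk8, its cyclin CycC, and the large proteins encoded by kto (fly MED12) and skd (fly MED13), binds the core reversibly. In flies skd and kto are known for roles in Wingless and Notch signalling during imaginal disc development. Hairy acts through corepressors at target genes, and core Mediator subunits are needed by most cells.

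Hairy-GFP bound 15 of the 29 Mediator genes (51.7%), a higher share than among coding genes matched on length (32.3%) and among all coding genes (36.7%). A gene was bound if a summit of the authors' reproducible peak list lay between 1 kb upstream and the gene end. Length-matched means the average, over members, of the share bound among other coding genes of the same length decile. No test was made, because genes are not replicates. The top lists of replicates 1, 2 and 3 (the strongest 10233 peaks of each, as many as the reproducible list holds) gave 16, 16 and 14 bound members, a mean of 15.3 ± 1.15 (SD, n = 3). In percent this was 52.9 ± 3.98 of members, 33.1 ± 0.74 of length-matched genes and 37.6 ± 0.71 of all coding genes (SD, n = 3 each). The reproducible list was made from the same replicates, so these values are not independent of it.

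The higher share depended on which gene a summit was given to. With each summit given only to the gene with the nearest coding transcription start site (TSS), 10 members were bound, or 34.5%, against 29.8% of length-matched and 33.7% of all coding genes. Counting only summits inside the gene itself, 5 members (17.2%) were bound, against 14.2% of length-matched and 19.3% of all coding genes. In both of these countings the members were within a few genes of the other sets, as the plot of shares shows.

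**Figure D1:**
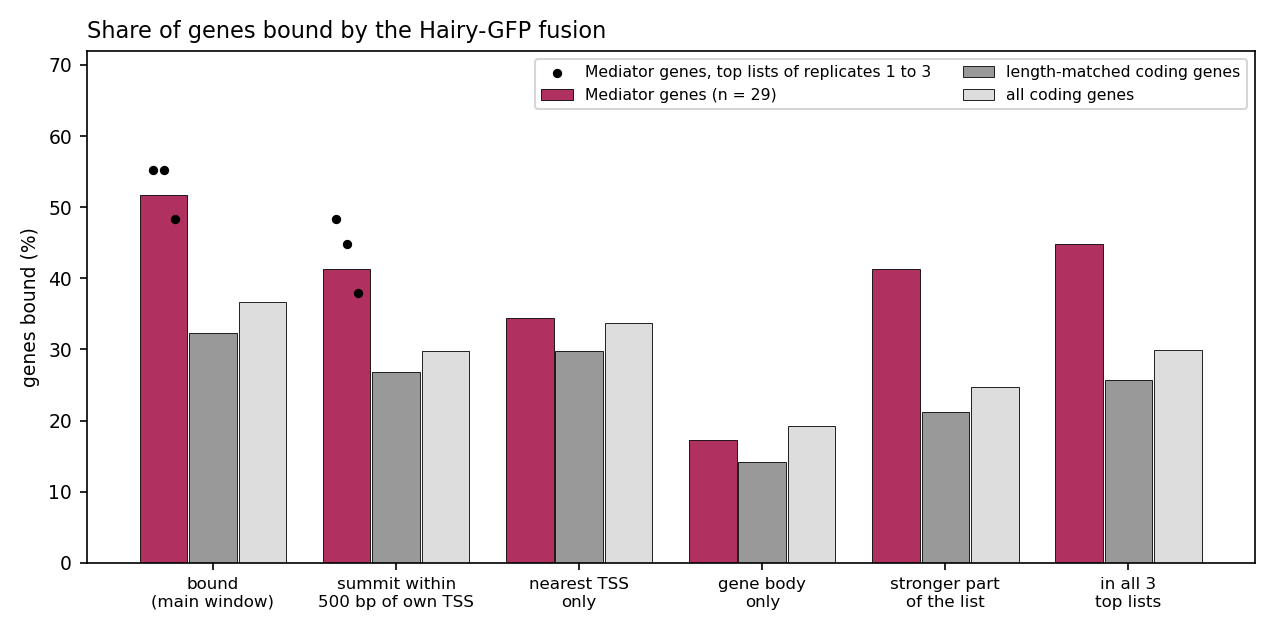
Share of genes bound (percent) for the Mediator genes (left bar of each set), length-matched coding genes and all coding genes, under several ways of assigning or filtering summits. Dots are the Mediator shares in the top lists of replicates 1 to 3. The Mediator bar of 51.7% in the main window falls to 34.5% when a summit counts only for the gene with the nearest TSS.

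At promoters, 12 of 29 members had a reproducible summit within 500 bp of one of their own TSSs, or 41.4%, against 26.8% of length-matched and 29.8% of all coding genes. The 12 were MED30, MED27, MED6, MED16, MED7, MED25, MED4, MED17, MED31, MED19, MED23 and skd. MED15, MED9 and MED8 were bound only by summits farther from their TSSs. The top lists of replicates 1, 2 and 3 gave 14, 13 and 11 members with a promoter summit. In the same lists it was 28.4%, 27.7% and 26.6% of length-matched genes and 31.5%, 30.6% and 29.8% of all coding genes. Of 17 member summits within 500 bp of any coding TSS, 7 lay nearer to the start of a neighbour than to that of the Mediator gene.

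Most Mediator genes start back to back with another gene. A coding gene on the other strand had its TSS within 1 kb upstream (or up to 250 bp past the member's TSS) for 21 of 29 members, or 72.4%, against 36.1% of length-matched and 36.5% of all coding genes. Of the 12 members with a promoter summit, 11 had such a divergent partner, and MED4 had none. A promoter summit was found at 11 of 21 members with a partner, or 52.4%, against 45.0% of all coding genes with a partner. Without a partner it was found at 1 of 8 members, or 12.5%, against 21.0% of all coding genes without one. Divergent promoters were thus bound more often in the whole genome too, and a larger share of Mediator genes than of other genes had one. Of the 23 member summits, 17 (73.9%) also lay in the window of another coding gene, against 24.4% of all summits that lay in a coding gene's window. A summit in such a shared stretch cannot be assigned to either gene from its position.

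The stretch between the TSSs of such pairs is short, and 3 are shown because they hold strong promoter summits, those of MED30, MED27 and MED7. Each is written on the strand of the Mediator gene, ending 1 base before its TSS, on build dm6 (sequence from RefSeq assembly Release 6). Capitals mark matches to the 7 motifs searched, on either strand. The MED30 stretch is chr3L:654090-654362 (minus strand), that of MED27 is chr3R:5654862-5655138 (plus strand) and that of MED7 is chr3R:10761033-10761309 (minus strand).
MED30: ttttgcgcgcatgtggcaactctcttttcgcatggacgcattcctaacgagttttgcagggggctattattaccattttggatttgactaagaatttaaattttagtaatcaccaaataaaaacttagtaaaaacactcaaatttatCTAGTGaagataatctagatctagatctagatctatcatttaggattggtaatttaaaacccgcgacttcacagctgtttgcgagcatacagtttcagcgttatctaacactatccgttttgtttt
MED27: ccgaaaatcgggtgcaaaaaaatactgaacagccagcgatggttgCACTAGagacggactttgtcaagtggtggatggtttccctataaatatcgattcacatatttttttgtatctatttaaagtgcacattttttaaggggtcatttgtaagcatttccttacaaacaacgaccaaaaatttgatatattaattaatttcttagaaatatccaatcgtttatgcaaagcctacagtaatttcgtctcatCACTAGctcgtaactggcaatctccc
MED7: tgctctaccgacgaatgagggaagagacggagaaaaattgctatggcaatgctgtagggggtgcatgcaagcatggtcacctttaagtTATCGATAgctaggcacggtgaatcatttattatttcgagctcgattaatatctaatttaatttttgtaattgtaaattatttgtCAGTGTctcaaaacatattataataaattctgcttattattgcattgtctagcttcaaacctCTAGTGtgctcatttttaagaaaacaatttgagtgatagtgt

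The summits lie at base 90, 125 and 225 of these stretches, counted from the 5′ end. None of the 3 holds the Hairy sites CACGTG or CACGCG. The capitals mark CACNAG matches in MED30 and MED27, and in MED7 a TATCGATA match (the DRE, bound by DREF and BEAF-32), an ACACTG match and a CACNAG match. Their GC content is 35.2%, 35.7% and 34.7%.

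The stretches of the 5 members with the closest divergent partner among those unbound in the reproducible list are shown in the same way. They are chr2L:8072849-8072894 for MED20 (minus strand, partner Trf), chr3L:16232039-16232083 for MED10 (plus strand, partner PDCD-5), chr3R:14890206-14890230 for CycC (minus strand, partner UQCR-C1), chr3R:25476916-25477002 for MED28 (plus strand, partner CG4553) and chrX:1865836-1865908 for MED18 (plus strand, partner Gcna).
MED20: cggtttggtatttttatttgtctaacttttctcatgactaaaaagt
MED10: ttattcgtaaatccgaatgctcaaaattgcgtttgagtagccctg
CycC: gccagtcagctgttcgtggaaaata
MED28: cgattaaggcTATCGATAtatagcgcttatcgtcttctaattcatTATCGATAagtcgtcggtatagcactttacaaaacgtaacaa
MED18: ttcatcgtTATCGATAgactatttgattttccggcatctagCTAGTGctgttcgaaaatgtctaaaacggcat

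MED28 holds 2 DRE matches and MED18 holds 1 with a CACNAG match, so a DRE was also present at promoters without a summit. These 5 stretches have 25 to 87 bases, against 273 to 277 for the 3 above, so fewer matches can fall in them. MED20 had peaks 28 and 77 bp from its TSS in replicates 1 and 2, though none in the reproducible list. The spacing between divergent TSSs ran from 19 to 481 bp with a median of 278 bp for the 11 partnered members with a promoter summit. It ran from 26 to 859 bp with a median of 101.5 bp for the 10 partnered members without. Over all coding genes with a partner, the medians were 278 bp with a promoter summit and 308 bp without. With a spacing of 151 to 500 bp, 8 of 10 members had a promoter summit, against 51.6% of coding genes. At up to 150 bp it was 3 of 9 members, against 44.4% of coding genes. These spacing classes were chosen after the values were seen.

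The strongest binding was at the genes of 2 subunits found in animals and placed between head and tail. MED30 (FBgn0035149, 3L 652987 to 654089) had a summit at 3L 654273, 184 bp upstream of its TSS, with a signal value of 1103 and rank 319 in the reproducible list. The signal value is a score from the authors with no stated scale, so it orders the peaks of 1 list and is not compared across lists. The MED30 peak ranked 241, 416 and 474 in replicates 1, 2 and 3, so all placed it among their strongest. The same summit lay 90 bp from the TSS of Rev1, which encodes a translesion DNA polymerase.

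MED27 (FBgn0037359, 3R 5655139 to 5656336) had a summit at 3R 5654986, 153 bp upstream, with a signal value of 918.9 and rank 477. It ranked 362, 523 and 1045 in replicates 1, 2 and 3, lower in replicate 3 than in the others. This summit was 125 bp from the TSS of elm and so nearer to that gene. MED28 (FBgn0039337), the other gene of this group (length-matched share 21.9% for its 3 genes), had no summit in its window in any list, and the nearest reproducible summit to its TSS was 3741 bp away.

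Of the 7 head genes, 3 were bound, namely MED6, MED17 and MED8, beside a length-matched share of 24.02%. MED6 (FBgn0024330, 3R 9766031 to 9768984), a conserved head subunit needed for activated transcription, has 5 TSSs and held 2 summits, both in its 5' UTR. The stronger, at 3R 9767810 with a signal value of 465.4, lay 5 bp from a MED6 TSS and ranked 1486, 1547 and 2749 in replicates 1, 2 and 3. The weaker, at 3R 9768460 with a signal value of 297.1, lay 42 bp from another MED6 TSS and ranked 1950, 4065 and 4959. Both are also in the window of Naa80, whose TSS is 19 bp from a MED6 TSS, and replicate 1 ranked both summits higher than replicate 3.

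MED17 (FBgn0038578), the architectural subunit of the head, held 2 promoter summits, with signal values of 246.5 and 195.5. The stronger, 237 bp upstream, lay nearer to CG12321 (128 bp), and the weaker, 36 bp upstream, lay nearest to MED17 itself. The peaks over the stronger summit ranked 3643, 3970 and 4729 in replicates 1, 2 and 3. In replicates 1 and 3, 1 peak covered both summits, and only replicate 2 separated them. MED8 (FBgn0034503) was bound by 1 weak summit in its upstream window, 868 bp from its TSS and 404 bp from that of CG8929, with a signal value of 134.4. It ranked 11376, 7520 and 6299, so it lay outside the top list of replicate 1.

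MED20, MED22, MED11 and MED18 were not bound. MED20 (FBgn0013531) differed between lists. In replicate 1 a peak with its summit 28 bp from the MED20 TSS ranked 3473, and in replicate 2 a peak 77 bp from it ranked 4201. Neither replicate 3 nor the pooled list of 30000 peaks had any summit in the window, although both of these ranks lie well inside the top lists. Of the peaks in the top lists, 3.97%, 3.96% and 5.54% in replicates 1, 2 and 3 had no pooled peak over their summit, so MED20 is among a small share of such peaks. Its partner is Trf, which encodes a TBP-related factor, with a TSS 47 bp away. MED22 had only a peak of rank 20185 in replicate 2, and MED11 and MED18 had no summit in any list.

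**Figure D2:**
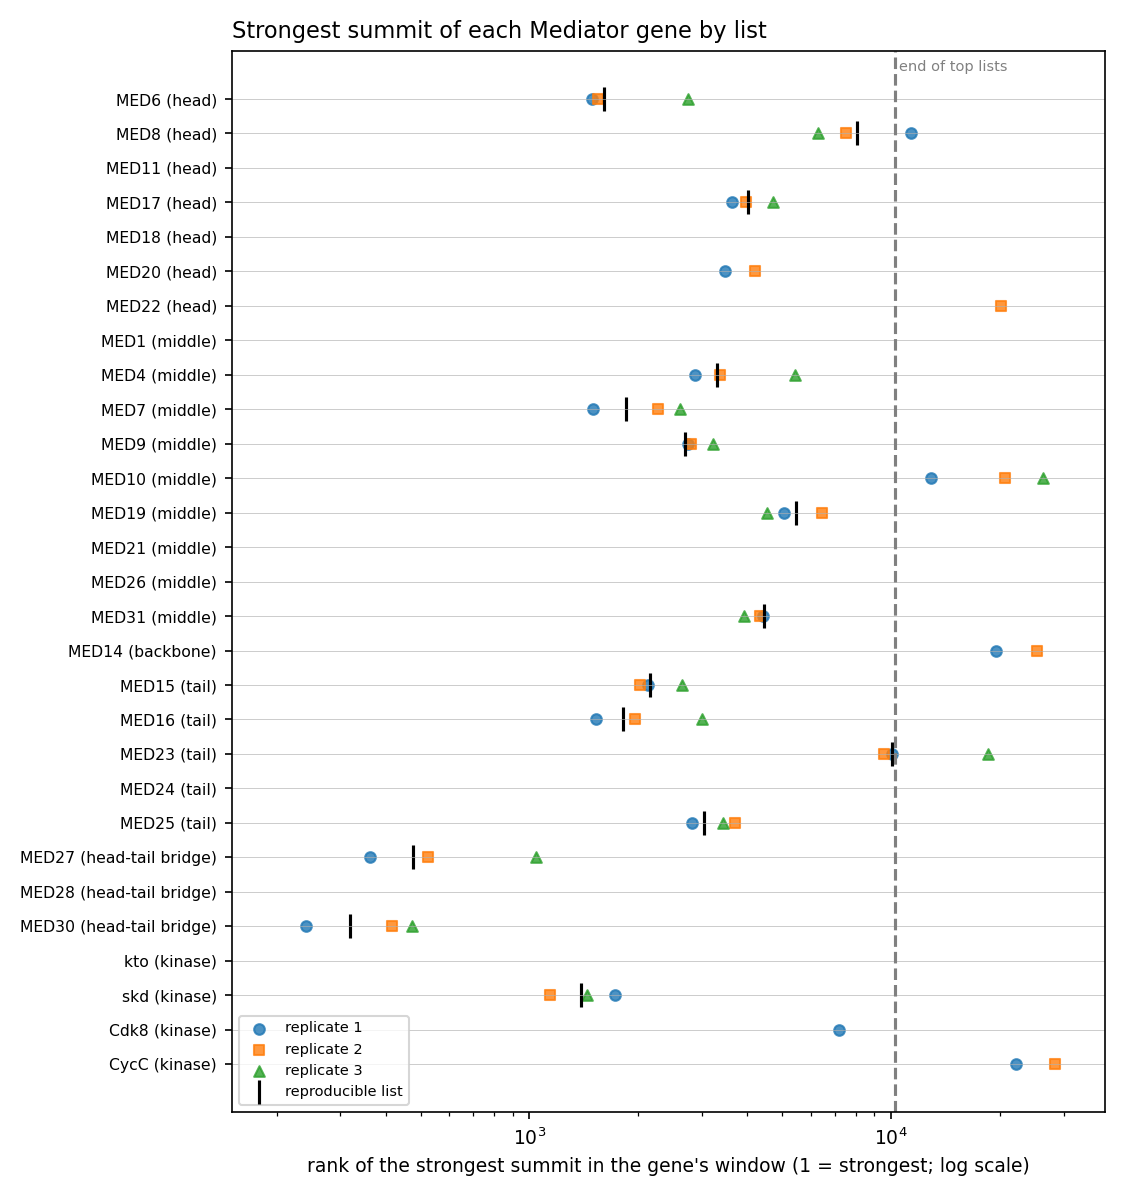
Rank of the strongest summit in each Mediator gene's window (log scale, 1 is the strongest) in replicates 1 to 3 and in the reproducible list, with genes grouped by module. The dashed line ends the top lists at rank 10233. A gene with no mark had no summit in any of these lists, as for MED11, MED18 and kto.

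Of the 9 middle genes, 5 were bound, namely MED7, MED9, MED4, MED31 and MED19, beside a length-matched share of 29.3%. Each of these was bound in all 3 top lists. MED7 (FBgn0051390) had a summit 53 bp upstream of its TSS with a signal value of 422.6, at ranks 1497, 2267 and 2601 in replicates 1, 2 and 3. Its divergent partner Cap-H2 encodes a condensin II subunit. MED4 (FBgn0035754) had a summit 150 bp upstream with a signal value of 283.3, at ranks 2867, 3357 and 5433. It was the only promoter-bound member without a divergent partner, and its summit lay in no other coding gene's window.

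MED31 (FBgn0037262) had a summit 133 bp upstream with a signal value of 226.7, at ranks 4429, 4339 and 3909. That summit was 8 bp from the TSS of CG9775. MED19 (FBgn0036761), which encodes a subunit that binds Hox proteins in flies, had a summit in its 5' UTR, 135 bp past its TSS, with a signal value of 191.8 and ranks of 5050, 6446 and 4551. For both genes replicate 3 gave the highest place, unlike at most other members. MED9 (FBgn0260401) was bound through a summit in a 3' UTR at the far end of the gene, 1098 bp from its TSS, with a signal value of 327.9. MED9 overlaps CG42518, and both have a TSS at the same position, so the summit is at equal distance from both.

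MED10, MED1, MED21 and MED26 were not bound. MED10 (FBgn0036581) had only weak peaks, and its best pooled peak, 26 bp from its TSS, ranked 18279. Its best ranks were 12888, 20628 and 26242 in replicates 1, 2 and 3, all outside the top lists. MED21, on 3L, was 896679 bp from the nearest reproducible summit, and MED26, on chromosome 4, was 18676 bp from it. MED1, which encodes the subunit that contacts nuclear receptors in mammals, had no summit in any list.

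MED14 (FBgn0035145, 3L 593246 to 599239), the scaffold gene, was not bound in the reproducible list, beside 48.2% of its length decile. The pooled list had weak summits 83 and 3562 bp from its TSS, at ranks 20558 and 19119, and replicate 3 had none.

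Of the 5 tail genes, 4 were bound, namely MED16, MED15, MED25 and MED23, and MED24 was not. Their median length was 3158 bp and their length-matched share 41.6%. MED16 (FBgn0034707) had a summit 63 bp upstream with a signal value of 430.0, at ranks 1532, 1953 and 2997 in replicates 1, 2 and 3. MED25 (FBgn0038760), whose human counterpart contacts viral and cellular activators, had a summit 162 bp upstream with a signal value of 299.9, at ranks 2809, 3709 and 3439. Both were in all 3 top lists. MED15 (FBgn0027592), a docking subunit for Smad proteins in vertebrates, had a summit 600 bp upstream with a signal value of 383.0, at ranks 2134, 2016 and 2641. It lay 213 bp from the TSS of CG4297, the divergent partner of MED15.

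MED23 (FBgn0034795), whose mammalian counterpart serves the ETS factor ELK1, was the weakest bound member. Its summit, in coding sequence 108 bp past the TSS, had a signal value of 107.0 and rank 10077 of 10233. It ranked 10037, 9537 and 18567 in replicates 1, 2 and 3, so it was outside the top list of replicate 3. MED23 and MED8 were the 2 bound members not held by all 3 top lists. The remaining 13 of 15 bound members (86.7%) were, against 84.1% of all bound coding genes.

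**Figure D3:**
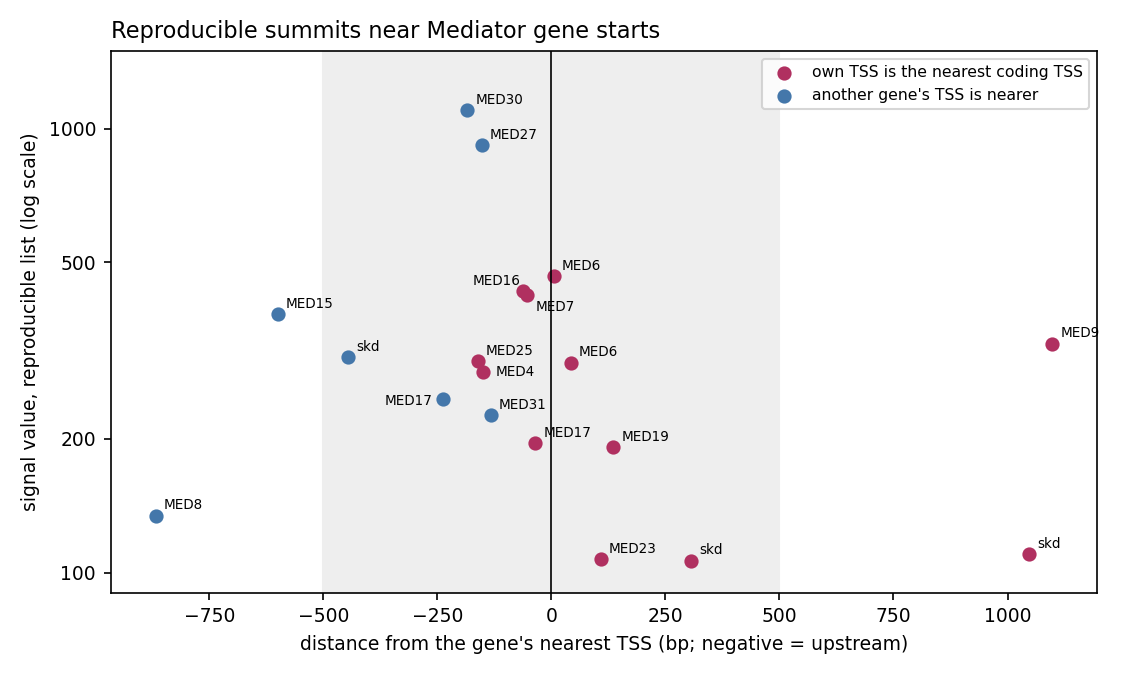
Signal value (log scale) of each reproducible summit against its distance from the nearest TSS of the Mediator gene (bp, negative is upstream), for summits within the plotted range. Colour shows whether that TSS or another gene's is the nearest coding TSS, and grey marks 500 bp on either side. The strongest points, MED30 at 1103 and MED27 at 918.9, lie nearer to another gene.

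In the kinase module only skd was bound, while kto, Cdk8 and CycC were not, beside a length-matched share of 45.5%. The gene skd (FBgn0003415, 3L 20992814 to 21027434) is 34621 bp long, the longest member, and 68.9% of other coding genes of its length decile were bound. It held 7 reproducible summits, against at most 2 in any other member. Bound coding genes held a median of 1 and up to 37, but their median length was only 3805 bp. Summit counts for genes as long as skd are not given here. The strongest skd summit, at 3L 21009775 in an intron 16429 bp past the nearest skd TSS, had a signal value of 511.9. It ranked 1722, 1142 and 1443 in replicates 1, 2 and 3. Another intronic summit at 3L 21014895 had a signal value of 365.6 and ranked 2128, 2117 and 3404. Both lay far from both skd TSSs and in no other coding gene's window.

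The bases around the strongest skd summit, chr3L:21009700-21009850 on the minus strand, are shown because it is the strongest member summit outside promoters. The summit is base 76. No letters are in capitals, since none of the 7 motifs is in this window.
skd: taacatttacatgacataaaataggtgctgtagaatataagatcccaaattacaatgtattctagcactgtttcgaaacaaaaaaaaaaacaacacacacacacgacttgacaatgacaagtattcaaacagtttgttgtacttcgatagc

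The intronic skd summits at 3L 21023477 and 3L 21011827 had signal values of 231.6 and 164.9, and all 3 top lists held both. A promoter summit 446 bp upstream of skd had a signal value of 305.5, but lay 35 bp from the TSS of Pdss2, which encodes a subunit of the enzyme that makes the coenzyme Q side chain. The 2 weakest skd summits, in its 5' UTR, had signal values of 110.2 and 106.3 and were held by 1 and 2 top lists. Ranks of the last were 14809, 9886 and 4436 in replicates 1, 2 and 3. This summit, the one of MED23 and the skd summit of 110.2 were the 3 weakest of the members and had the widest spread of ranks between replicates.

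**Figure D4:**
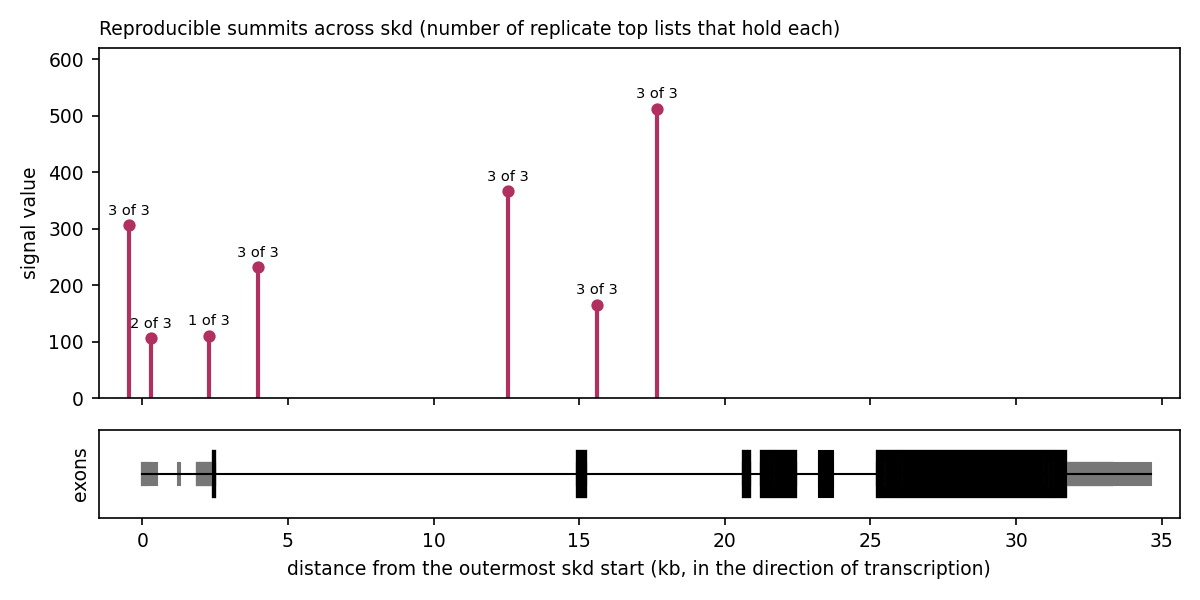
Signal values of the 7 reproducible summits across skd (upper panel), with the number of replicate top lists that hold each, and exons of skd (lower panel; tall boxes are coding), by distance from its outermost start in kb. The strongest summits, at 511.9 and 365.6, are intronic and held by all 3 top lists.

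Cdk8 (FBgn0015618) had a peak of rank 7170, 70 bp from its TSS, in replicate 1, and no summit in the window in replicates 2 and 3 or in the pooled list. CycC (FBgn0004597) had peaks of rank 22185 and 28423 in replicates 1 and 2 and none in replicate 3. The partner protein gene kto (FBgn0001324), 8331 bp long, had no summit in any list, although 60.1% of other coding genes of its length decile were bound. The nearest reproducible summit to a kto TSS was 3234 bp away. The kinase and cyclin genes of the module thus lacked reproducible binding, and its 2 large subunit genes differed.

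Of the 14 unbound members, 8 had no summit in their window in any list (MED24, MED11, kto, MED1, MED21, MED28, MED26 and MED18). In the pooled list 12 of 29 members (41.4%) had no summit, against 52.6% of length-matched and 47.8% of all coding genes. Only MED14 and MED10 had a weaker summit in the pooled list (14.3%), against 24.5% of all unbound coding genes. Members were 694 to 34621 bp long with a median of 1330 bp, against 2166 bp over all coding genes. Bound members had a median length of 2194 bp, against 1119.5 bp for unbound members. Over all coding genes the medians were 3805 bp bound and 1719 bp unbound, so bound genes were longer in both sets.

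The strongest summit of a bound member had a median signal value of 327.9 (107.0 to 1103), against 281.4 over all bound coding genes. The mean, over the bound members, of the median in their length deciles was 268.9. Of the 23 member summits, 10 were intergenic (outside coding genes), 7 in 5' UTRs, 4 in introns, 1 in a 3' UTR and 1 in coding sequence. These are features of any coding gene, so a 5' UTR can be that of a neighbour, as at MED31 and MED8. The same split over all reproducible summits is not given here. A peak of all 3 top lists covered 19 of 23 (82.6%), against 70.4% of all reproducible summits.

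The Hairy sites CACGCG and CACGTG were rare at member summits and also over all reproducible summits. Within 100 bp of the 23 summits, on either strand, the class C site CACGCG was at 2, or 8.70%, against 6.24% of all reproducible summits, and both were intronic skd summits. The class B E-box CACGTG was at 1, the stronger MED17 summit, or 4.35% against 2.11%. The N-box CACNAG was at 6, or 26.1% against 20.3%. GAGAGA was at 6, of which 4 were summits of skd, or 26.1% against 12.6%. The 6-mer ACACTG was at 4, or 17.4% against 16.6%. TATCGATA and GGTCACAC (Ohler 1, bound by M1BP) were at 1 each, or 4.35%, against 3.00% and 2.12%. With 23 summits, 1 summit is 4.35%, so most of these shares differ by only 1 or 2 summits. Of the 17 member summits within 500 bp of any coding TSS, CACGCG was at 0, against 7.82% of all such reproducible summits. CACNAG was at 6, against 22.8%, ACACTG at 4, against 19.1%, and GAGAGA at 2, against 12.9%. CACGTG, TATCGATA and GGTCACAC were at 1 each, against 2.46%, 6.93% and 4.65%.

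Core elements of broadly used genes were at a larger share of Mediator promoters than of all coding gene promoters. The window searched can also take in the promoter of a divergent partner. Shares among length-matched genes or genes with a divergent partner were not counted. From 250 bp before to 50 bp after the gene start, on either strand, the DRE was found at 7 of 29 members, or 24.1%, against 9.36% of all coding genes. Ohler 1 was found at 9, or 31.0%, against 7.70%, and either element at 15, or 51.7%, against 16.1%. ACACTG was found at 14, or 48.3%, against 18.9%. Its first 4 letters are the last 4 of GGTCACAC, and the motifs occurred together at 8 members. With matches that overlap Ohler 1 left out, ACACTG was at 8 members, or 27.6%, against 15.8%. GAGAGA was found at 1 member, MED21, or 3.45%, against 12.3%.

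The promoters with these elements were not mainly those with a promoter summit. Of the members without one, MED15, MED9 and MED8 were still bound, by summits farther from their TSSs. Ohler 1 was at 2 of the 12 members with a promoter summit (MED23 and MED19) and at 7 of the other 17 (MED15, MED20, MED8, MED24, MED10, MED11 and MED22). Over all coding genes it was at 10.9% of promoters with a summit and 6.35% of those without. The DRE was at 3 of the 12 (MED7, MED17 and MED25) and at 4 of the 17 (MED9, MED8, MED28 and MED18), against 13.5% and 7.62% over all coding genes. The N-box was at 6 of the 12 and 5 of the 17, against 30.9% and 29.2%. This promoter window was chosen after values were seen. It surrounds the outermost gene start, whereas a promoter summit lies within 500 bp of any own TSS. The summit can thus lie outside the window, as at MED23 and MED19 (108 and 135 bp past the TSS). A match is only a run of letters, and no binding of M1BP, DREF or BEAF-32 was measured.

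**Figure D5:**
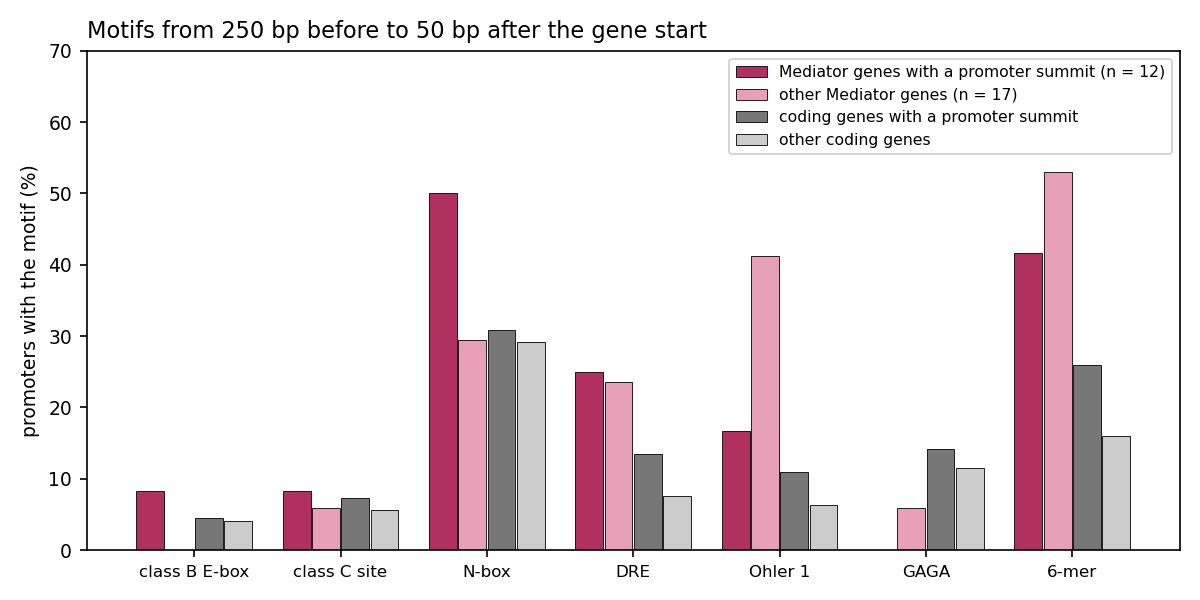
Share of promoters (percent) with each motif, for Mediator genes with a promoter summit, other Mediator genes, coding genes with a promoter summit and other coding genes. The class B E-box is CACGTG, the class C site CACGCG and the 6-mer ACACTG. Ohler 1 was at 2 of 12 and 7 of 17 Mediator promoters, and the DRE at 3 of 12 and 4 of 17.

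Other lists of transcription machinery genes were counted in the same way. Of 12 RNA polymerase II subunit genes, 5 (41.7%) were bound, beside a length-matched share of 24.6%, led by Polr2H (signal value 617.5), Polr2F (568.4) and Polr2B (539.2). The Polr2H summit lay 16 bp from the TSS of CG11247, nearer than its own at 142 bp. Of 33 general transcription factor genes, 15 (45.5%) were bound, beside 29.9%, and all 15 had a promoter summit. The strongest there was at Ssl1 (3515), a TFIIH subunit gene, but 81 bp from the TSS of Chro, followed by Taf4 (948.6) and TfIIA-L (457.6). The TfIIA-L summit was nearer to pll (94 bp) than to TfIIA-L (154 bp). Of 14 Integrator genes, 6 (42.9%) were bound, beside 43.3%, led by IntS11 (804.9), IntS6 (694.6) and IntS4 (400.9). The first of these lay nearer to Wdr24 (97 bp) than to IntS11 (148 bp), and the next nearer to Rtel1 (73 bp) than to IntS6 (420 bp). Of 6 elongation kinase genes and their regulators, 1 (16.7%) was bound, beside 40.7%, namely Cdk12, through a summit 103 bp from the TSS of SAK.

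The replicate top lists gave 6 ± 1 of 12 polymerase genes and 17 ± 1.73 of 33 general factor genes (SD, n = 3 each). They gave 6.67 ± 0.58 of 14 Integrator genes and 2 ± 0 of 6 elongation genes (SD, n = 3 each). In the same lists 37.6 ± 0.71% of all coding genes were bound (SD, n = 3). Length-matched shares for these gene groups were not counted in the replicate lists. No test of differences between lists was made.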

How the data were processed

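Binding was measured by ChIP-seq of Hairy-GFP in 3 biological replicates, and the authors deposited peak lists on builds dm6 and dm3. Only dm6 was used. Per the deposited notes, a list was made from each replicate's alignment and 1 from all 3, each with a further file not described there and not used here, and the reproducible list was made from these with an irreproducible discovery rate threshold. Its 10233 entries were all found unchanged among the 30000 pooled peaks. The deposited signal value is a score of unstated scale, used for ranks within a list, and the deposited −log10 q-value was not used. Positions were deposited as other values, 0-based, and are given here 1-based. The sources used here name neither aligner nor peak caller, and read depth is unknown.

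Genes came from Ensembl release 115, and all 29 members had the same span in the RefSeq assembly that gave the sequences. Summits (column start plus offset) were assigned with Python 3.11.15, numpy 2.4.6 and pandas 2.3.3, and assignment was tested on simulated summits. Every member is named, with the nearest coding gene where it is another gene, and the 3 members of each further list with the strongest summit. Members and lists were chosen with earlier results of these data known. No test was made. Alternatives changed the window, the threshold, the matching, the motif window and the replicates used. Top-list peaks of any 2 replicates shared at most 2.08% of exact summit positions, so they are not copies. Overlapping genes can share a summit.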

Additional observations from a re-analysis of the deposited data

How the results depend on the processing

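No paired analysis was possible because there is 1 group. The number of bound members was 15 in the reproducible list and 5 when only the gene body counted. It was 10 (nearest TSS) to 21 (5 kb upstream to 1 kb past the gene end) under the other assignments and thresholds. Without 1 replicate it was 13 to 14 (44.8% to 48.3%), against 31.1% to 32.7% of all coding genes. The length-matched share of 32.3% was 31.4% when matched also on the number of TSSs, 29.8% for the nearest TSS, 49.4% for the wide window, 14.2% for the gene body, 33.95% for any base of the peak, 21.2% for the stronger part of the list, 25.7% for summits in all 3 top lists, 47.4% for the pooled list, and 26.8% to 28.4% without 1 replicate. The mean over replicates was 15.0 to 16.0 members without 1 replicate. Members with a promoter summit numbered 10 (34.5%, stronger part of the list) to 14 (48.3%, within 1000 bp) over the alternatives. In these 2 settings it was 16.9% and 30.7% of length-matched genes and 18.7% and 33.9% of all coding genes. Without 1 replicate 11 to 12 members had a promoter summit, against 24.1% to 25.7% of all coding genes. The median signal value of 327.9 was 313.9 for the nearest TSS and 302.7 for promoter summits. Within 50 bp of summits, the class C site and Ohler 1 were at 0 of 23, against 3.22% and 1.07% of all reproducible summits. The N-box, the GAGA motif and the 6-mer were at 2 each (8.70%), against 10.4%, 5.67% and 7.27%. Within 200 bp, the class B E-box and Ohler 1 were at 2 each (8.70%), against 4.94% and 3.73%. The DRE was at 3 (13.0%), against 4.46%, and the 6-mer at 7 (30.4%), against 27.1%. Over all reproducible summits, the share with each motif rose as the window widened from 50 to 100 to 200 bp. Read depth is not known, and whether it affected values near the end of the list, such as that of MED23, was not tested.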

Other observations

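With the window widened to 5 kb upstream and 1 kb past the gene, 21 of 29 members were bound, or 72.4%, against 49.4% of length-matched and 52.5% of all coding genes. The 6 members added were MED14, MED24, MED10, MED28, MED18 and kto. Near MED28, the summit 3741 bp from its TSS was strong (signal value 1232) and lay nearest to the TSS of Fur1, which encodes a furin protease. Near MED18, a summit of signal value 753.0 lay 3960 bp from its TSS and nearest to deltaCOP, a coatomer subunit gene. Near MED24, a summit of 662.6 lay 4392 bp away and nearest to Atg18a, an autophagy gene. Each of these lies nearest to a gene that is not part of Mediator.

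The top list of replicate 1 held 1 Cdk8 peak that no other list had, and the top lists of replicates 1 and 2 held the MED20 peak, so the 16 members bound in replicate 1 include both genes but not MED8.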
